A study of Mus musculus with 10 samples.

Results

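Sorted Foxl1 positive cells of the mouse intestinal mesenchyme were compared with differentiated intestinal epithelium in the 5 of 10 RNA sequencing libraries whose titles name these groups. Foxl1 positive replicates 1 and 2 came from mice with Foxl1Cre and the Cre reporter Rosa-YFP, and replicate 3 from mice with Foxl1Cre and Rosa-mTmG. Their strain is given as mixed. In such mice Cre made under Foxl1 control switches the reporter on for good, so that cells that once expressed Foxl1 and their descendants also carry it. Both differentiated epithelium libraries are labelled wild type on a C57BL/6J background. The tissue label of the epithelial libraries nevertheless reads intestine mesenchyme, and the extraction text describes only the mesenchyme, which was dissociated with Dispase II and trypsin before sorting. The design text names 3 mice for the sorted mesenchyme without tying a mouse to a library, and no number of mice is given for the epithelium. All p-values therefore rest on differences among libraries of a group, and these may be technical. Every library carries its own flow cell name, so that strain, genotype, sequencing run and cell group cannot be told apart.

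Telocytes are mesenchymal cells with long, thin extensions that line the underside of the gut epithelium, and Foxl1 is a forkhead transcription factor used to mark them. Crypt stem cells need Wnt ligands and R-spondins, secreted proteins that the surrounding mesenchyme can supply, while BMP signals accumulate towards the villus and their antagonists act near the crypt base. The epithelium in turn secretes Hedgehog ligands that act on mesenchymal cells. Differentiated enterocytes carry a brush border of microvilli with digestive enzymes and transporters, and they pack absorbed fat with apolipoproteins into chylomicrons. The study asked whether such cells supply the Wnt signals of the stem cell niche, and this comparison sets them beside the differentiated layer above.

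Library totals were 4368332 to 11167676 counts in the Foxl1 positive group and 79516088 and 80910717 in the epithelium. Levels are CPM, the usual depth-scaled counts, after correction by trimmed mean of M values (TMM), whose factors ran from 1.27 to 1.41 and were 0.599 and 0.679. Values are listed below in the order of Foxl1 positive replicates 1, 2 and 3 against epithelial replicates 1 and 2. A count of 0 allows up to 3 counts, which over a whole group is 0.0997 CPM in Foxl1 positive cells and 0.0293 CPM in epithelium, for counting error alone. Folds against a group without counts are therefore lower bounds against this level. Where a group held 1 to 3 counts, the other group's mean CPM is divided by this group's pooled level. The pooled level is its summed counts over its summed scaled library sizes, and the ratio is given with its 95% counting interval. Other log2 fold changes are Foxl1 positive minus epithelium ± SE, from 3 and 2 libraries. Across the genes tested, Spearman's rho was 0.982 between the epithelial libraries and 0.783 between Foxl1 positive replicates 1 and 2, but 0.543 and 0.544 between these and replicate 3.

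Dcn and Apoa4 separated the groups, whereas Foxl1 itself was at very unequal levels between the sorted libraries and did not set replicate 1 apart from the epithelium. Foxl1 (mm9 chr8:123651585-123654544) was counted 2, 276 and 55 times in the sorted libraries and 1 and 0 times in the epithelial ones, which is 0.141, 27.7 and 9.27 against 0.021 and 0 CPM. Replicate 1 thus lay below 3 counts for the gene that names its group. Foxl1 did not pass the threshold, with a ratio of 1267 to the pooled epithelial level (95% counting interval 227 to 50036, adjusted p = 0.0549), though it did without replicate 1 (adjusted p = 0.0397). Dcn encodes decorin, a collagen-binding proteoglycan of fibroblasts, and measured 623, 307 and 6336 against 0 and 0.0364 CPM (124161-fold higher, 34371 to 1025235 by counting, adjusted p = 0.0214). All 3 sorted libraries were far above the epithelium. Apoa4, an apolipoprotein made by enterocytes during fat absorption, measured 10.8, 141 and 3.2 against 52516 and 35187 CPM (log2 fold change -9.73 ± 2.31, adjusted p = 0.0373), and replicate 2 held the most of it among the sorted libraries. Apoa4 did not pass without Foxl1 positive replicate 1 (adjusted p = 0.0928).

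By summed level, epithelial and T cell transcripts were present in Foxl1 positive replicates 1 and 2 and scarce in replicate 3. The summed level of 16 pan-epithelial genes (Epcam, keratins, claudins and others) was 13.9% and 12.6% of the epithelial mean in replicates 1 and 2 and 0.837% in replicate 3. For 12 T cell genes the summed level was 130% and 182% of the epithelial mean in replicates 1 and 2, and 6.48% in replicate 3. The median over these genes was lower, at 55.2%, 79.6% and 7.85% in replicates 1, 2 and 3. For 7 of the 12 every sorted library was below the epithelium, for 1 every one was above, and 4 overlapped. Over all 13876 genes tested, 31.2% were below and 28.8% above in this way, and 5558 overlapped. Cd8a did not share the order of the sum, at 0.564, 0.301 and 3.2 CPM in replicates 1, 2 and 3. B and plasma cell genes did not share this order, with summed levels of 584%, 239% and 388% in replicates 1, 2 and 3. Malat1, a long non-coding RNA kept in the nucleus, was named after its values were seen and measured 41437, 26899 and 2600.4 against 26.4 and 80.8 CPM (log2 fold change 8.79 ± 2.25, adjusted p = 0.0436). Among the sorted libraries Malat1 was thus also highest in those with most epithelial and T cell transcripts. It was lowest in the epithelial libraries themselves. Malat1 did not pass without Foxl1 positive replicate 1 (adjusted p = 0.0701) or without replicate 2 (adjusted p = 0.0628). The part of other cells or of nuclear RNA in the results below was not tested. In bulk libraries, fewer cells of a type and less RNA per cell cannot be told apart.

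**Figure D1:**
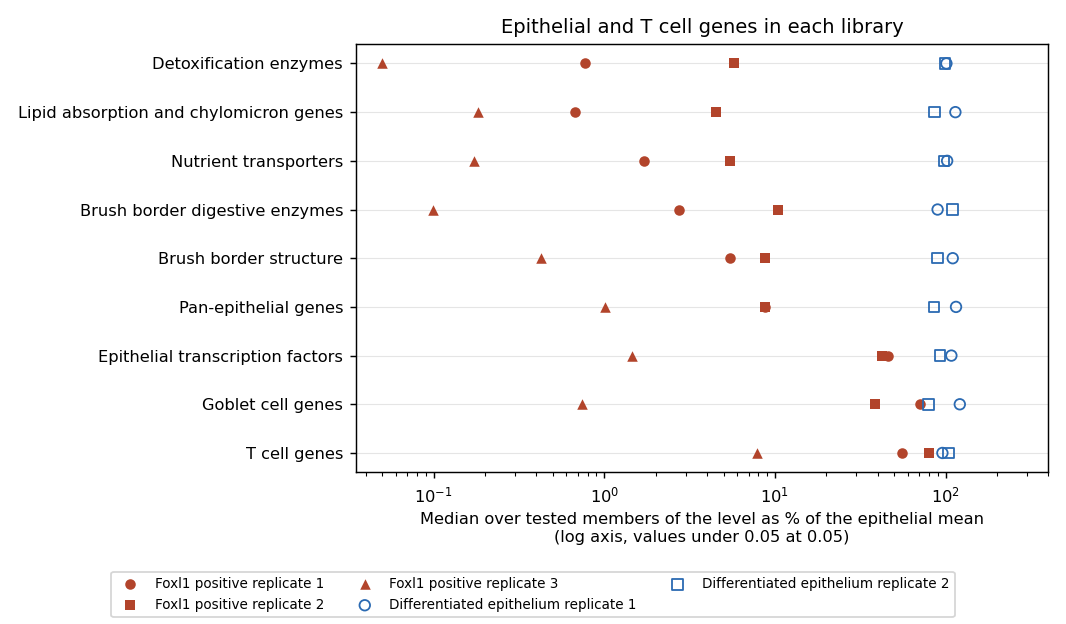
For each gene list (rows) the points give the median over its tested members of a library's level as a percentage of the epithelial mean, on a log axis. Filled symbols are the Foxl1 positive libraries and open symbols the epithelial ones. Replicate 3 (triangles) lies to the left of replicates 1 and 2 in every list shown, at 1.45% for epithelial transcription factors against 45.7% and 42.6%.

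Of 13876 genes tested, 1467 (10.6%) were higher and 998 (7.19%) lower in Foxl1 positive cells at an adjusted p under 0.05 (edgeR quasi-likelihood test, Benjamini-Hochberg). Of these, 210 higher genes had no count in either epithelial library and 38 lower genes no count in any Foxl1 positive library. The groups did not overlap for any called gene. They also did not overlap for 28.8% of all genes tested in the higher and 31.2% in the lower direction. The median log2 fold change over all genes tested was 0.32, and 1.4 when libraries were scaled by totals without TMM, where 2488 genes were higher and 398 lower. DESeq2 called 3470 higher and 2177 lower, while limma-voom turned the split around with 1950 higher and 2333 lower. Without replicate 1 or 2 of the epithelium no gene passed in edgeR (lowest adjusted p 0.129 and 0.107), though 2329 and 2828 genes had an unadjusted p under 0.05. These fits have an epithelial arm of 1 library and take their spread from the Foxl1 positive libraries alone, so they do not show which calls depend on either epithelial library. Without Foxl1 positive replicate 1 there were 1031 higher and 332 lower genes, without replicate 2 there were 1059 and 503, and without replicate 3 there were 3155 and 3087. Over 17 lists of signals, receptors, matrix and mesenchymal genes 126 of 204 tested members were higher and 4 lower, with 102 to 136 higher when any one Foxl1 positive replicate was left out. Over 9 absorptive and epithelial lists 64 of 159 were lower and none higher. There 20 were lower without Foxl1 positive replicate 1, 52 without replicate 2 and 121 without replicate 3. None of the 2465 called genes changed direction under any setting tried in which it was tested.

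**Figure D2:**
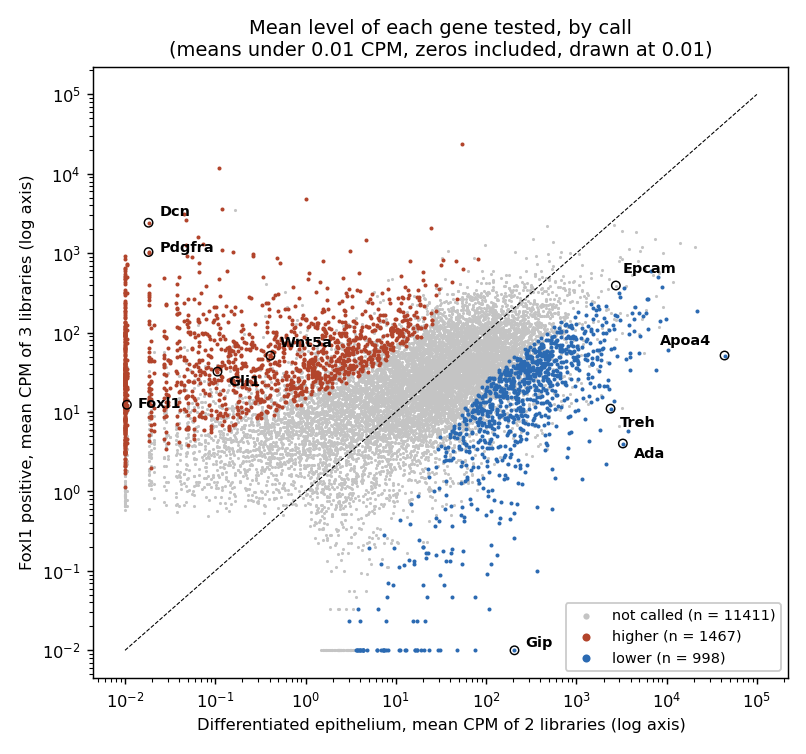
Each point is a gene tested, with its mean CPM over 2 epithelial libraries (x, log axis) and over 3 Foxl1 positive libraries (y, log axis), red where called higher and blue where called lower in Foxl1 positive cells. Dcn and Pdgfra sit near the left edge with mean CPM of 2422 and 1034, and Apoa4 lies far to the right at 43852 CPM in epithelium. The dashed line marks equal levels.

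The 12 genes with the largest fitted fold change among those with at least 50 CPM over both groups were Postn, Col5a1, Mfap4, Lum, Hhip, Col3a1, Dcn, Ogn, Cxcl12, Ednra, Cav1 and Fbn1. Most encode matrix proteins. The fitted order is not an order of measured folds, since several of these, such as Postn and Cav1, had no epithelial count and have only a lower bound, and Nid1, Col12a1 and Pdgfra, outside the 12, have larger stated folds below. Cxcl12, a chemokine that retains leukocytes and stem cells in stromal niches, measured 91.5, 59.0 and 872 CPM with no count in either epithelial library (at least 11651-fold higher, adjusted p = 0.0225). Cav1, the coat protein of caveolae, measured 134, 32.9 and 775 CPM with no count in either epithelial library (at least 10735-fold higher, adjusted p = 0.0232). The 12 at the other end of the fitted order were Gip, Tmprss15, Gchfr, Slc47a1, Apoc3, Apoa4, Slc2a7, Cyp2c29, Ada, Ces2c, Otop3 and Dio1. The part of gut segment in this order was not tested. Tmprss15 encodes enteropeptidase, the duodenal protease that activates trypsinogen, and measured 0, 0.301 and 0 against 218 and 521 CPM (3710.4-fold lower, 1269.6 to 17992 by counting, adjusted p = 0.0141). Ada, adenosine deaminase, measured 6.13, 4.41 and 1.52 against 3272 and 3281 CPM (log2 fold change -9.66 ± 1.16, adjusted p = 0.0121). Hhip, Col3a1 and Apoa4 did not pass without Foxl1 positive replicate 1 (adjusted p = 0.0545, 0.0552 and 0.0928). In deposited FPKM, which allow levels of different genes to be set side by side per length, Col3a1 led the Foxl1 positive group at 1111 ± 1813 (SD, n = 3) and Apoa4 the epithelium at 13949 ± 3051 (SD, n = 2). Replicate 3 held most Col3a1, at 3204 FPKM against 99.1 and 30.4 in replicates 1 and 2.

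Wnt2b and Wnt5a were higher in the Foxl1 positive libraries than in the epithelium. Of 17 Wnt ligand genes with data 6 were tested, of which 2 were higher and none lower, and the other 11 had too few counts to test. Wnt2b, a ligand of the canonical pathway through beta-catenin, measured 76.0, 10.1 and 35.6 against 0.189 and 0.62 CPM (log2 fold change 6.63 ± 1.38, adjusted p = 0.0284). Wnt5a, which mostly acts without beta-catenin, measured 27.2, 47.6 and 78.9 against 0.105 and 0.711 CPM (log2 fold change 6.95 ± 1.29, adjusted p = 0.023). Neither ligand overlapped between groups. Wnt2b was highest in Foxl1 positive replicate 1, which held 2 Foxl1 counts, and lowest in replicate 2, which held 276. Wnt5a was lowest in replicate 1 and highest in replicate 3. Wnt4, Wnt5b, Wnt9a and Wnt3 were tested and did not pass. Wnt4 measured 9.8, 47.8 and 4.89 against 7.51 and 5.72 CPM, so that replicate 3 was below epithelial values. Wnt9a measured 2.33, 4.11 and 5.73 against 0.336 and 0.273 CPM (adjusted p = 0.0951). Wnt2, not tested because it was counted in a single library, had 69 counts in Foxl1 positive replicate 3, 11.6 CPM, and 0 in the other 4 libraries. Per length, mean deposited FPKM in Foxl1 positive cells were 4.25 ± 2.99 for Wnt2b, 4.99 ± 4.08 for Wnt5a and 1.79 ± 1.83 for Wnt4 (SD, n = 3), which do not differ beyond their spread. Wnt2b did not pass without Foxl1 positive replicate 1 (adjusted p = 0.0514).

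R-spondins amplify Wnt signals by keeping frizzled receptors at the cell surface. Rspo3 measured 0.916, 15.9 and 19.7 CPM with no count in either epithelial library (at least 417-fold higher, adjusted p = 0.036), and replicate 1 was the low library. The other R-spondin genes were not tested: Rspo1 had no count in any Foxl1 positive library, and Rspo2 had 46 counts in replicate 3 alone. Wls, a membrane protein needed to export Wnt proteins, measured 40.4, 14.7 and 159.8 against 2.58 and 4.23 CPM and missed the threshold (adjusted p = 0.0537). Porcn, the enzyme that attaches the lipid Wnt proteins need, measured 0, 0 and 6.4 against 1.64 and 1.86 CPM, so its groups overlapped. Rspo3 did not pass without Foxl1 positive replicate 2 (adjusted p = 0.0708).

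Of 4 secreted Wnt inhibitors tested 3 were higher, and the median log2 fold change was 10.25. Sfrp1, which binds Wnt proteins outside the cell, measured 604, 136 and 734 against 0 and 0.0547 CPM (16792-fold higher, 5746 to 81426 by counting, adjusted p = 0.015). Dkk3, of the dickkopf family, measured 123, 145 and 536 against 0.063 and 0.0364 CPM (log2 fold change 12.28 ± 1.47, adjusted p = 0.0125). Frzb, another Wnt-binding protein, measured 11, 0.501 and 36.4 against 0.042 and 0.0547 CPM (log2 fold change 8.23 ± 2.20, adjusted p = 0.0475). Of 8 frizzled receptor genes 3 were higher and none lower, and the median log2 fold change was 1.46. The groups overlapped for 3 of the 8, beside 5558 of all 13876 genes tested. Fzd2 measured 12.3, 34.3 and 23.9 against 0.063 and 0.0729 CPM (log2 fold change 8.34 ± 1.21, adjusted p = 0.0151). Fzd1 measured 87.7, 18.2 and 188 against 2.67 and 2.61 CPM (log2 fold change 5.21 ± 1.20, adjusted p = 0.0348), with all sorted libraries above the epithelium for both. Fzd3 was the last of the 3, at 10.6, 9.62 and 6.24 against 0.021 and 0.0547 CPM (adjusted p = 0.024). Fzd5, the receptor most used by the crypt epithelium, measured 124, 168 and 0.337 against 125 and 118 CPM and overlapped. Frzb and Fzd1 did not pass without Foxl1 positive replicate 1 (adjusted p = 0.0714 and 0.0623).

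BMP ligand genes were higher in 6 of 10 tested members and lower in none, with a median log2 fold change of 6.64. Bmp5 measured 174, 223 and 241 CPM with no count in either epithelial library (at least 7261-fold higher, adjusted p = 0.0121). Bmp4 measured 308, 126 and 178 against 0.021 and 0.0547 CPM (log2 fold change 12.21 ± 1.20, adjusted p = 0.0121). Bmp7 measured 68.8, 45.4 and 88.3 against 0.462 and 0.456 CPM (log2 fold change 7.19 ± 0.86, adjusted p = 0.0121). In these genes the sorted libraries differed from each other by far less than from the epithelium. Bmp6 measured 35.7, 21.4 and 20.2 against 0.0839 and 0.109 CPM (adjusted p = 0.0147). Bmp3, an inhibitory member, measured 204, 95.7 and 29.5 against 1.68 and 1.55 CPM (adjusted p = 0.023). Inhba, the activin subunit, measured 15.6, 35.6 and 15.7 against 0 and 0.0182 CPM (adjusted p = 0.0152). Bmp2 measured 29.2, 51.5 and 61.9 against 42.8 and 33.7 CPM and did not differ beyond the spread (adjusted p = 0.735). The summed level of the ligand list was 592%, 435% and 655% of the epithelial mean in Foxl1 positive replicates 1, 2 and 3.

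BMP antagonists were higher as well, in 4 of 8 tested members, with none lower. Grem1, which sequesters BMP ligands below the crypt, measured 8.03, 1.6 and 75.8 CPM with no count in either epithelial library (at least 974-fold higher, adjusted p = 0.0407). Chrdl1, a relative of chordin, measured 7.19, 1.1 and 34.9 CPM with no count in either epithelial library (at least 492-fold higher, adjusted p = 0.0394). Both lay highest in replicate 3 and lowest in replicate 2, and the list had 2 calls without replicate 1. Fstl1, a follistatin-like secreted glycoprotein, measured 231, 116 and 1055 against 0.147 and 0.0729 CPM (4099-fold higher by the fit, with an SE of 1.77 on the log2 scale, adjusted p = 0.0155). Twsg1, which modulates BMP binding, measured 223, 213 and 632 against 31.2 and 29.1 CPM (log2 fold change 3.56 ± 0.86, adjusted p = 0.0387). Chrd itself measured 0.846, 7.82 and 32.9 against 0.063 and 0.128 CPM and missed the threshold (adjusted p = 0.0535). Grem1, Chrdl1 and Twsg1 did not pass without Foxl1 positive replicate 1 (adjusted p = 0.0651, 0.0659 and 0.0586). Twsg1 did not pass without replicate 2 (adjusted p = 0.0553).

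Hedgehog genes were split between the layers, the ligand on the epithelial side and the response on the mesenchymal side. Ihh, the Hedgehog ligand of villus epithelium, measured 0.211, 4.01 and 0.674 against 182 and 99.3 CPM (log2 fold change -6.42 ± 1.29, adjusted p = 0.0265). Of 12 receptor and response genes 9 were higher and none lower, with a median log2 fold change of 10.98 (9.02 with genes without an epithelial count at their bound). Gli1, a transcription factor that is itself switched on by the signal, measured 21.6, 44.7 and 30.7 against 0.0839 and 0.128 CPM (log2 fold change 8.19 ± 1.07, adjusted p = 0.0141). Ptch1, the receptor and also a target, measured 189, 170.1 and 46.2 against 1.99 and 3.02 CPM (log2 fold change 5.75 ± 0.99, adjusted p = 0.0208). Hhip, a decoy receptor, measured 285, 28.7 and 1200.0 CPM with no count in either epithelial library (at least 17244-fold higher, adjusted p = 0.0247). Ptch1 was lowest in replicate 3 whereas Hhip was highest there. Gli2 and Gli3 encode the other Gli factors. Gli2 measured 43.5, 18.8 and 42.8 CPM with no count in either epithelial library (adjusted p = 0.0142). Gli3 measured 14.3, 26.9 and 24.9 CPM with no count in either epithelial library (adjusted p = 0.0151). Smo, which passes the signal on, measured 55.7, 30.5 and 136 against 0.294 and 0.146 CPM (adjusted p = 0.0151). Foxf1a and Foxf2 encode forkhead factors of gut mesenchyme. Foxf1a measured 24.5, 20.9 and 84.8 against 0 and 0.0364 CPM (adjusted p = 0.0163). Foxf2 measured 45.5, 23.5 and 54.3 against 0 and 0.0182 CPM (adjusted p = 0.0125). The other 3 did not pass. Hhip did not pass without Foxl1 positive replicate 1 (adjusted p = 0.0545).

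**Figure D3:**
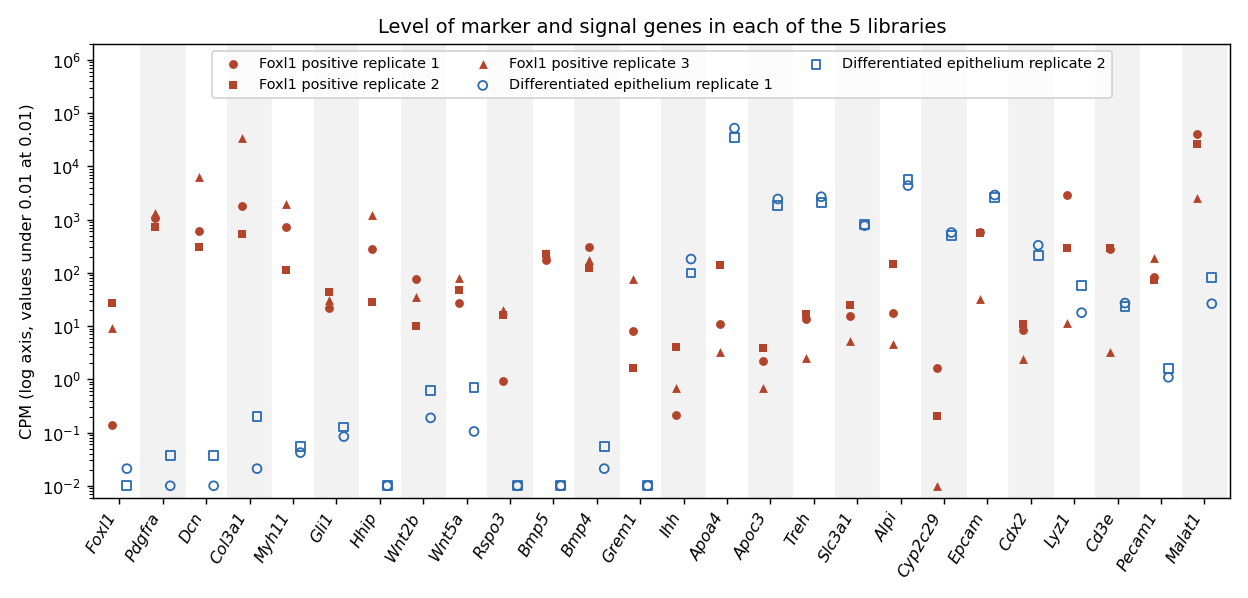
CPM of marker, signal and epithelial genes in each library on a log axis, with values under 0.01 drawn at 0.01. Filled red symbols are Foxl1 positive replicates and open blue symbols the epithelial replicates. Foxl1 in replicate 1 sits at 0.141 CPM, while Pdgfra, Bmp5 and Gli1 are close together in the sorted libraries, and Cd3e, Epcam and Malat1 are lowest in replicate 3 among them.

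Of 21 ligand genes of the FGF, EGF, PDGF, HGF and IGF families 6 were higher and 1 lower. These are 28.6% and 4.76%, beside 10.6% and 7.19% of all genes tested. Hgf, hepatocyte growth factor, which acts on epithelial cells, was even across the sorted libraries at 29.2, 31.4 and 28.1 CPM with no count in either epithelial library (at least 1011-fold higher, adjusted p = 0.0127). Igf1 measured 161, 39.0 and 467 against 0 and 0.0182 CPM (22791-fold higher, 4091 to 900201 by counting, adjusted p = 0.0152). Ereg, an EGF family ligand, measured 56.2, 26.3 and 161 against 1.74 and 4.19 CPM (log2 fold change 4.77 ± 1.12, adjusted p = 0.0367). Nrg1, a ligand of ERBB3, measured 1.06, 39.1 and 10.1 against 0 and 0.0182 CPM (1717-fold higher, 308 to 67829.8 by counting, adjusted p = 0.036), and replicate 1 was low. Its receptor gene Erbb3 was lower in Foxl1 positive cells, at 20.4, 27.0 and 1.01 against 308 and 524 CPM (log2 fold change -4.69 ± 1.25, adjusted p = 0.0473). Hbegf was the ligand that was lower, at 5.64, 3.31 and 1.69 against 41.3 and 59.6 CPM (log2 fold change -3.82 ± 0.80, adjusted p = 0.028). Of 17 receptor genes 8 were higher (47.1%) and Erbb3 was lower (5.88%, beside 7.19% of all genes tested). Pdgfra, the PDGF receptor that marks subepithelial fibroblasts and telocytes, measured 1059.9, 728 and 1316 against 0 and 0.0364 CPM (53031-fold higher, 14680.5 to 437894 by counting, adjusted p = 0.0121). The endothelin receptor genes Ednra and Ednrb were higher too. Ednra measured 516, 278 and 152 CPM with no count in either epithelial library (adjusted p = 0.0121). Ednrb measured 166, 258 and 412 against 0 and 0.0364 CPM (adjusted p = 0.0121). Ereg and Erbb3 did not pass without Foxl1 positive replicate 1 (adjusted p = 0.0606 and 0.101). Nrg1, Erbb3 and Hbegf did not pass without replicate 2 (adjusted p = 0.0614, 0.0842 and 0.0623).

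Telocyte marker genes, listed with earlier results of these data known, were higher in 7 of 13 tested members and lower in none. Besides Pdgfra, Bmp5, Bmp7, Gli1 and Nrg1, these were F3, tissue factor, at 48.6, 43.7 and 256 against 1.51 and 1.0 CPM (log2 fold change 6.53 ± 1.27, adjusted p = 0.0249), and Cd34. Cd34, a surface glycoprotein of stromal and endothelial cells, measured 48.1, 9.42 and 575 against 0.0839 and 0.109 CPM (log2 fold change 11.02 ± 2.46, adjusted p = 0.0327). Cd34 was lowest in replicate 2 and highest in replicate 3. Edn3 and Dll1 had higher values in the epithelium and did not pass. Edn3, an endothelin, measured 4.02, 21.4 and 22.4 against 97.7 and 79.5 CPM (adjusted p = 0.0794). Dll1, a Notch ligand, measured 23.6, 2.1 and 16.9 against 78.2 and 64.5 CPM (adjusted p = 0.125). Sox6 measured 159, 179 and 41.8 against 33.5 and 62.7 CPM and its groups overlapped. Cd34 did not pass without Foxl1 positive replicate 1 (adjusted p = 0.0534). Nrg1 did not pass without replicate 2 (adjusted p = 0.0614).

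Collagen genes were higher in 14 of 15 tested members. Their median log2 fold change, 14.26, was the highest of the 41 lists, and was 14.01 with Col5a1 and Col5a3 at their bounds. The fibrillar collagen Col1a1 measured 1048, 327 and 6507 against 0.021 and 0.0729 CPM (log2 fold change 15.62 ± 2.58, adjusted p = 0.019). Col3a1 measured 1781, 541 and 33541 against 0.021 and 0.20 CPM (log2 fold change 16.64 ± 3.66, adjusted p = 0.0316). Replicate 3 held by far the most of both. Col6a3, of microfibrillar collagen VI, measured 696, 535 and 1751 against 0 and 0.0364 CPM (50959.7-fold higher, 14107 to 420791 by counting, adjusted p = 0.0125). Col12a1, which decorates fibrils, measured 739.7, 639.9 and 762 against 0.021 and 0 CPM (73185-fold higher, 13135 to 2890658 by counting, adjusted p = 0.0121), both more even. Col8a1 was the member that missed the threshold (adjusted p = 0.0588). The list had 8 calls without Foxl1 positive replicate 1. Col5a3 and Col3a1 did not pass without Foxl1 positive replicate 1 (adjusted p = 0.066 and 0.0552). Col5a3 did not pass without replicate 2 (adjusted p = 0.0566). The summed level of the list was 107000%, 53100% and 908000% of the epithelial mean in Foxl1 positive replicates 1, 2 and 3.

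Of 18 basement membrane genes 12 were higher in Foxl1 positive cells and 1 lower (5.56%, beside 7.19% of all genes tested). Lama2 and Lama4 encode laminin chains of stromal and vascular basement membranes. Lama2 measured 433, 258 and 604 against 0 and 0.0182 CPM (adjusted p = 0.0121). Lama4 measured 303, 367 and 833 against 0.042 and 0.0364 CPM (log2 fold change 13.48 ± 1.30, adjusted p = 0.0121). Nid1, which links laminin to collagen IV, measured 629.8, 438 and 1469 against 0 and 0.0182 CPM (86672-fold higher, 15556 to 3423354 by counting, adjusted p = 0.0121). Col4a1 and Col4a2 encode the main collagen IV chains. Col4a1 measured 421, 197 and 3174 against 0.021 and 0.0729 CPM (adjusted p = 0.0189). Col4a2 measured 433, 172 and 1577 against 0.021 and 0 CPM (adjusted p = 0.015). Lamb3, a chain of the epithelial laminin that anchors hemidesmosomes, was lower at 0.846, 3.61 and 0.169 against 44.5 and 77.6 CPM (log2 fold change -5.28 ± 1.21, adjusted p = 0.0346). Lama3, its partner chain, was on the same side and missed the threshold, at 15.3, 5.91 and 5.06 against 39.1 and 89.7 CPM (adjusted p = 0.0513). Again 12 members were higher without Foxl1 positive replicate 1, and likewise without replicate 2. Lamb3 did not pass without Foxl1 positive replicate 1 (adjusted p = 0.073).

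Of 24 matrix proteoglycan and glycoprotein genes 22 were higher and none lower, with a median log2 fold change of 13.5 (12.58 with genes without an epithelial count at their bound). Prelp and Vcan encode a leucine-rich and a large proteoglycan. Prelp measured 741, 318 and 434 against 0.315 and 0.364 CPM (log2 fold change 10.50 ± 1.09, adjusted p = 0.0121). Vcan measured 354, 123 and 224 against 0.042 and 0.0911 CPM (log2 fold change 11.67 ± 1.21, adjusted p = 0.0121). Fbn1, the core of microfibrils, measured 819, 331 and 1641 against 0 and 0.0182 CPM (95373-fold higher, 17118 to 3767027 by counting, adjusted p = 0.0121). Ogn measured 334, 291 and 805 CPM with no count in either epithelial library (at least 16292-fold higher, adjusted p = 0.0121). Postn, periostin, measured 110.4, 355 and 1468 CPM with no count in either epithelial library (at least 22034-fold higher, adjusted p = 0.0184). Fbln1 did not follow: it measured 49.9, 27.5 and 907 against 1201 and 692 CPM and its groups overlapped. Of 16 matrix protease and inhibitor genes 12 were higher and none lower. Adam12, a membrane-bound metalloprotease, measured 119.7, 106 and 73.3 CPM with no count in either epithelial library (at least 3407-fold higher, adjusted p = 0.0121). Mmp2, a gelatinase, measured 275, 269.6 and 1695 against 0.042 and 0.0911 CPM (log2 fold change 13.34 ± 1.86, adjusted p = 0.0151). Adamdec1, a metalloprotease of gut stroma, reached 2189, 246 and 12209 against 0.378 and 1.64 CPM (log2 fold change 12.23 ± 2.71, adjusted p = 0.0322). In all, 19 matrix protein and 8 protease genes were called without Foxl1 positive replicate 1. Adamdec1 did not pass without Foxl1 positive replicate 1 (adjusted p = 0.0601).

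Contractile genes of smooth muscle were higher in 10 of 14 tested members and lower in none, with a median log2 fold change of 10.93 (10.07 with bounds). Myh11, the smooth muscle myosin heavy chain, measured 716, 113 and 1934 against 0.042 and 0.0547 CPM (log2 fold change 14.08 ± 2.08, adjusted p = 0.0155). Acta2, smooth muscle actin, measured 262, 114 and 2775 against 0.168 and 0.146 CPM (log2 fold change 12.67 ± 2.37, adjusted p = 0.0232). Replicate 2 was lowest and replicate 3 highest for both. Synpo2, an actin-binding protein, was even at 123, 87.4 and 139.7 against 0.021 and 0.0547 CPM (log2 fold change 11.40 ± 1.04, adjusted p = 0.0121). Myl9, the regulatory light chain, measured 114, 38.6 and 962 against 0.776 and 0.674 CPM (log2 fold change 8.99 ± 1.96, adjusted p = 0.0309). Tpm1, a tropomyosin that many cell types use, measured 531, 429.7 and 945 against 580.4 and 489 CPM and overlapped (adjusted p = 0.821). Calls numbered 5 without Foxl1 positive replicate 1. Myl9 did not pass without Foxl1 positive replicate 1 (adjusted p = 0.0519). Myl9 is shown because it was the only 1 of 11 contractile genes with a RefSeq promoter window that held a CArG box, the site read by serum response factor, in the 250 bases before to 50 after its start. Of all 32851 windows 1.63% held one on either strand. By gene with a window, the share was 1.67% of those tested, 2.54% of those called higher and 1.9% of those called lower. The window of Myl9 (GRCm38.p6, chr2:156775214-156775513, plus strand) has the match in capitals. A match in these letters is not a measured binding site.
Myl9: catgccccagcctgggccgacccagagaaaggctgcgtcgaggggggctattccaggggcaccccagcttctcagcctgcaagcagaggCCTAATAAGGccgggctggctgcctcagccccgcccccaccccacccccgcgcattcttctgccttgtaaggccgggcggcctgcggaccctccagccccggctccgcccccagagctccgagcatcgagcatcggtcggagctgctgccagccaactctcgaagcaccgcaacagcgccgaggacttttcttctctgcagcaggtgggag

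Transcription factors of the mesenchyme were higher in 13 of 21 tested members and lower in none. Zeb1 and Zeb2 encode repressors of epithelial genes. Zeb1 measured 89.1, 82.0 and 68.6 against 0.42 and 0.638 CPM (log2 fold change 7.22 ± 0.81, adjusted p = 0.0121). Zeb2 measured 500.1, 152 and 197 against 0.126 and 0.346 CPM (log2 fold change 10.19 ± 1.29, adjusted p = 0.0139). Snai2, of the same function, measured 15.5, 25.6 and 35.7 CPM with no count in either epithelial library (at least 875-fold higher, adjusted p = 0.015). Nkx2-3, a homeobox factor of intestinal mesenchyme, measured 92.8, 24.9 and 229 against 0 and 0.0182 CPM (11849-fold higher, 2127 to 468012 by counting, adjusted p = 0.0151). Tcf21 measured 51.3, 16.6 and 119.8 CPM with no count in either epithelial library (at least 2139-fold higher, adjusted p = 0.0163). Prrx1, commonly a mesenchymal factor, had the higher values in the epithelium, at 0.0705, 0.401 and 3.2 against 27.9 and 44.7 CPM, and did not pass (adjusted p = 0.0598).

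Of 21 transcription factors of the epithelium 2 were lower (9.52%, beside 7.19% of all genes tested) and none higher, with a median log2 fold change of -1.44. Cdx2, a homeobox factor that sets intestinal identity, measured 8.32, 11 and 2.36 against 330.2 and 213 CPM (log2 fold change -5.22 ± 0.85, adjusted p = 0.0186). Klf4 measured 77.7, 29.4 and 27.8 against 609.6 and 581 CPM (log2 fold change -3.73 ± 0.75, adjusted p = 0.0266). Hnf4a, which drives enterocyte genes, measured 281, 461 and 8.09 against 1629 and 1366 CPM and did not pass (adjusted p = 0.204). Klf5, of proliferating epithelium, measured 268, 230.3 and 6.07 against 133 and 114 CPM, so that replicates 1 and 2 were above and replicate 3 was below both epithelial libraries. Of these 21 factors 10 overlapped between groups, beside 5558 of all 13876 genes tested. In Foxl1 positive replicate 3 the list was at 1.45% of the epithelial mean by its median, against 45.7% and 42.6% in replicates 1 and 2. Klf4 did not pass without Foxl1 positive replicate 2 (adjusted p = 0.0618).

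**Figure D4:**
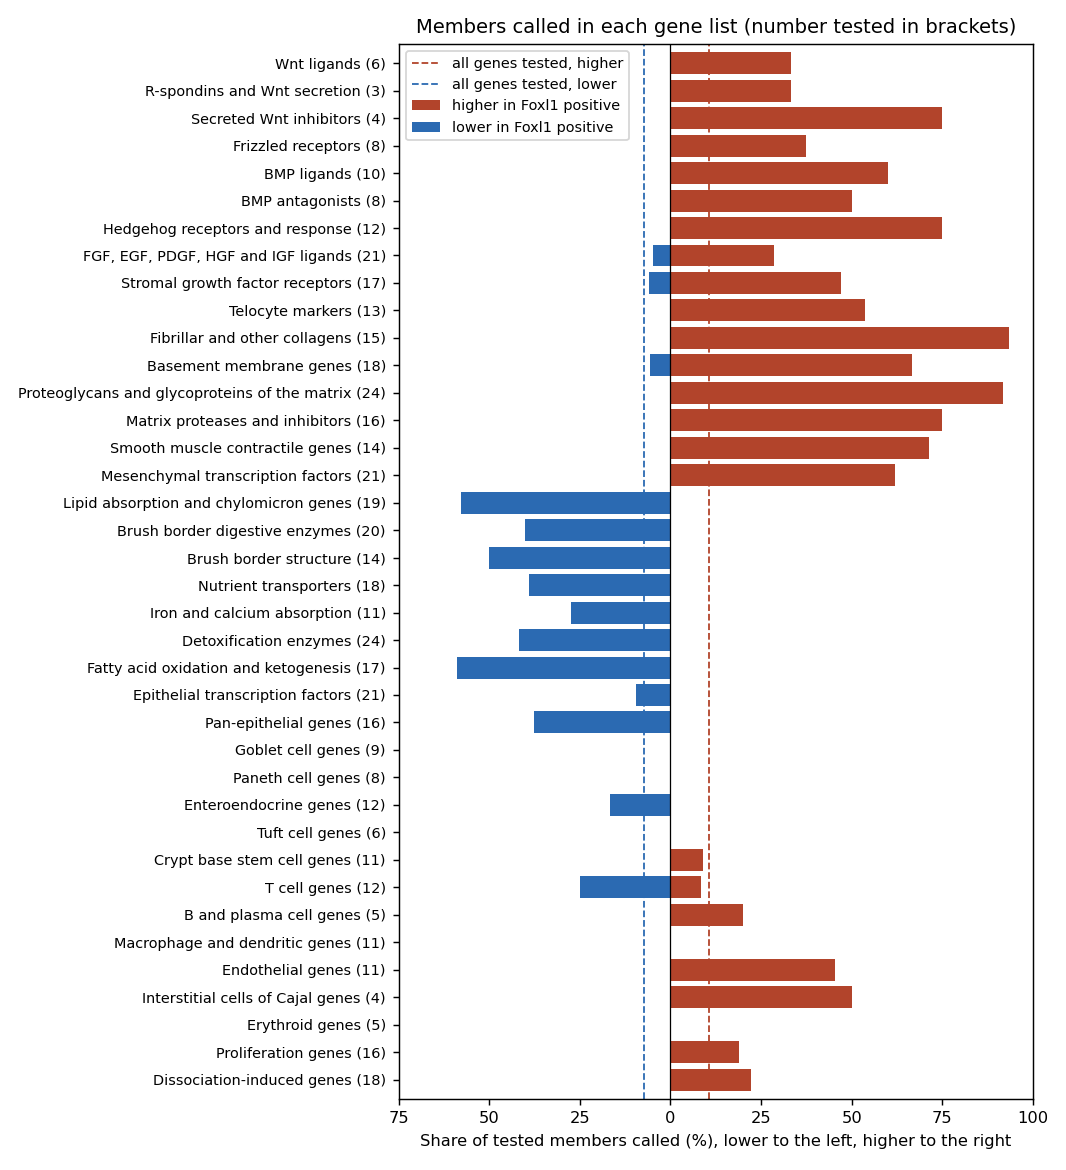
For each gene list with at least 3 members tested (number in brackets) the bars give the share of tested members called higher (right) or lower (left) in Foxl1 positive cells. Dashed lines give the shares over all genes tested, 10.6% and 7.19%. Collagens reach 93.3% on the right, and fatty acid oxidation 58.8% and lipid absorption 57.9% on the left.

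Genes of fat absorption were lower in 11 of 19 tested members and higher in none, with a median log2 fold change of -5.93. Apoc3, an apolipoprotein of triglyceride-rich particles, measured 2.25, 3.81 and 0.674 against 2448 and 1833 CPM (log2 fold change -9.88 ± 1.18, adjusted p = 0.0123). Apoa1, of high-density lipoprotein, measured 147, 412 and 9.94 against 26521 and 16914 CPM (log2 fold change -6.84 ± 1.8, adjusted p = 0.0461). Creb3l3, a transcription factor that drives apolipoprotein genes, measured 0.211, 7.01 and 5.73 against 1687 and 1052 CPM (log2 fold change -8.32 ± 1.53, adjusted p = 0.0226). Mttp, which loads lipid onto nascent chylomicrons, measured 46.7, 353 and 15.3 against 7988 and 8919 CPM (log2 fold change -5.93 ± 1.60, adjusted p = 0.0483). Mogat2, which rebuilds triglyceride, measured 5.14, 32.8 and 1.85 against 1738 and 1162 CPM (log2 fold change -6.77 ± 1.42, adjusted p = 0.0287). Slc27a4, a fatty acid transport protein, measured 4.58, 67.3 and 30.5 against 4423 and 3353 CPM (log2 fold change -6.83 ± 1.36, adjusted p = 0.0263). Acsl5, which activates fatty acids, measured 101, 320.4 and 116 against 5606 and 6358 CPM (log2 fold change -5.06 ± 1.04, adjusted p = 0.0275). In all of these the lowest epithelial library was above the highest sorted one. Fabp6, the bile acid binding protein of ileal enterocytes, had higher values in the sorted group, at 519.6, 724 and 2.19 against 0.693 and 0.0364 CPM, and did not pass (adjusted p = 0.0559). Fabp6 was thus high in replicates 1 and 2, and low in replicate 3 and in both epithelial libraries. Tmprss15, the duodenal protease named above, lay the opposite way, high in both epithelial libraries and almost absent from the sorted ones. The reason was not tested, nor was a difference in gut segment between the groups. Calls fell to 3 without Foxl1 positive replicate 1. Apoa1, Mttp, Mogat2 and Acsl5 did not pass without Foxl1 positive replicate 1 (adjusted p = 0.122, 0.116, 0.0695 and 0.071). Apoa1 and Creb3l3 did not pass without replicate 2 (adjusted p = 0.0615 and 0.0541).

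Brush border enzyme genes were lower in 8 of 20 tested members and higher in none. The groups did not overlap for 19 of the 20 in the lower direction, beside 31.2% of all genes tested. Treh, trehalase, measured 13.7, 16.8 and 2.53 against 2698 and 2092 CPM (log2 fold change -7.76 ± 1.18, adjusted p = 0.016). Alpi, intestinal alkaline phosphatase, measured 17.9, 145 and 4.55 against 4369 and 5636 CPM (log2 fold change -6.48 ± 1.65, adjusted p = 0.0436). Ace, the angiotensin-converting dipeptidase, measured 15.4, 194 and 60.5 against 5711 and 4503 CPM (log2 fold change -5.83 ± 1.32, adjusted p = 0.0341). Lactase (Lct) measured 36.6, 128 and 0.337 against 5008 and 6186 CPM and did not pass (adjusted p = 0.0606). Sucrase-isomaltase (Sis) measured 182, 1403 and 3.88 against 2200.3 and 6156 CPM and did not pass either (adjusted p = 0.27). Structural genes of microvilli were lower in 7 of 14. Espn, an actin-bundling protein, measured 0.0705, 1.0 and 0.843 against 501 and 225 CPM (log2 fold change -9.20 ± 1.25, adjusted p = 0.0149). Pdzk1, a scaffold of apical transporters, measured 29.9, 23.1 and 4.89 against 1309 and 993 CPM (log2 fold change -5.89 ± 1.00, adjusted p = 0.020). Villin (Vil1) measured 349, 512 and 14.3 against 8035 and 7259 CPM and missed the threshold (adjusted p = 0.0698). Without Foxl1 positive replicate 1 there were 1 enzyme call and 2 structural calls, and without replicate 2 there were 7 and 3. Alpi and Ace did not pass without Foxl1 positive replicate 1 (adjusted p = 0.102 and 0.0632). By the median over a list, enzyme genes were at 2.73%, 10.4% and 0.0992% of the epithelial mean in Foxl1 positive replicates 1, 2 and 3. Structural genes were at 5.42%, 8.79% and 0.425%.

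Nutrient transporters were lower in 7 of 18 tested members and higher in none. Slc3a1, which pairs with a light chain to take up cystine and basic amino acids, measured 15.2, 24.6 and 5.22 against 772 and 802 CPM (log2 fold change -5.71 ± 0.89, adjusted p = 0.0167). Slc6a19, the neutral amino acid transporter, measured 10.8, 30.9 and 2.36 against 1523 and 1875 CPM (log2 fold change -6.85 ± 1.26, adjusted p = 0.0226). Slc3a2, the heavy chain of basolateral amino acid exchangers, was even at 80.3, 66.4 and 83.8 against 1021 and 726 CPM (log2 fold change -3.51 ± 0.65, adjusted p = 0.0225). The glucose transporter Slc5a1 measured 183, 434 and 10.6 against 10028 and 8348 CPM and missed the threshold (adjusted p = 0.0566). Of 11 iron and calcium absorption genes 3 were lower. Heph, the ferroxidase that exports iron, measured 20.9, 53.2 and 21.9 against 617 and 960.4 CPM (log2 fold change -4.62 ± 0.79, adjusted p = 0.0197). Trpv6, the apical calcium channel, measured 22.2 and 19.1 CPM in the epithelium with no count in any Foxl1 positive library (at least 208-fold lower, adjusted p = 0.0222). Leaving out Foxl1 positive replicate 1 gave 2 transporter calls and 1 iron or calcium call. Slc6a19, Slc3a2 and Heph did not pass without Foxl1 positive replicate 1 (adjusted p = 0.0626, 0.0578 and 0.052). Slc3a2 did not pass without replicate 2 (adjusted p = 0.0525).

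The promoter windows of Treh, Alpi and Slc3a1 are shown because they held CAAAGTCCA, a sequence bound by the nuclear receptor HNF4, found in 2 of 17 enzyme, 1 of 20 transporter and none of 16 fat absorption genes with a window. All 3 genes were called lower. Alpi did not pass without Foxl1 positive replicate 1 (adjusted p = 0.102). The motif was searched on both strands of the 250 bases before to 50 after each start. Of all 32851 windows 0.475% held it. By gene with a window, the share was 0.642% of those tested. It was 0.203% of those called higher (2 of 986) and 1.49% of those called lower (11 of 737). AGATAA, the GATA motif, was found for 5 of 17 enzyme, 6 of 20 transporter and 1 of 16 fat absorption genes. It was in 11.2% of all windows. By gene the share was 8.43% of those tested, 7.81% of those called higher and 8.28% of those called lower. The GATA match in the Slc3a1 window does not overlap the HNF4 motif. TTTATGG, a CDX motif, was found for 2.33% of genes called higher and 2.31% called lower. GACCACCCA (GLI) was found for 0 of 8 Hedgehog receptor and response genes and in 0.253% of all windows. TGTTTAC (forkhead) was found for 0 of 10 telocyte marker genes and in 3.65% of all windows. Sequences are from RefSeq (GRCm38.p6), read along the gene, with the HNF4 motif or its reverse complement in capitals. Treh lies at chr9:44672983-44673282 on the plus strand, Alpi at chr1:87101557-87101856 on the minus strand and Slc3a1 at chr17:85028097-85028396 on the plus strand. These letters were not tested for binding.
Treh: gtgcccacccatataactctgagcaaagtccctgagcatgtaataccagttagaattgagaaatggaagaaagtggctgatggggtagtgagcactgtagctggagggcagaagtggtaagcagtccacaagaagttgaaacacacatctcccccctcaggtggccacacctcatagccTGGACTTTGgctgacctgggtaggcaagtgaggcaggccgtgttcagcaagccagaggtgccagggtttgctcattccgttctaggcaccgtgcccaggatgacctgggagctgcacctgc
Alpi: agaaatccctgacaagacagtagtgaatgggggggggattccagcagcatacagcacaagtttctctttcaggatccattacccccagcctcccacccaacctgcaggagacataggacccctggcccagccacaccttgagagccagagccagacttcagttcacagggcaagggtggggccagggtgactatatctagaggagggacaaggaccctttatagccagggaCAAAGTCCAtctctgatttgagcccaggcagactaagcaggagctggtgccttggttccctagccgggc
Slc3a1: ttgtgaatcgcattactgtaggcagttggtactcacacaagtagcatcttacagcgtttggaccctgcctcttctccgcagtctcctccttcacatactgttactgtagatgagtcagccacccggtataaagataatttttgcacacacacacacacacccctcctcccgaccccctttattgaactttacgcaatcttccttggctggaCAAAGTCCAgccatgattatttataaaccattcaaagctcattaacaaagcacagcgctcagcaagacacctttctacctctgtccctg

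Detoxification and fatty acid oxidation genes were on the epithelial side. Of 24 detoxification enzyme genes 10 were lower and none higher. The groups did not overlap in the lower direction for all 24, beside 31.2% of all genes tested. Cyp2c29, a cytochrome P450, measured 1.62, 0.20 and 0 against 573 and 505 CPM (log2 fold change -9.66 ± 1.54, adjusted p = 0.0173). Ces2c, a carboxylesterase, measured 0.0705, 3.91 and 0.337 against 1263 and 1038 CPM (log2 fold change -9.63 ± 1.77, adjusted p = 0.0226). Ugt1a1, which glucuronidates bilirubin and drugs, measured 26.8, 63.1 and 51.1 against 1932 and 1473 CPM (log2 fold change -5.18 ± 0.82, adjusted p = 0.0167), though transcripts of the Ugt1a cluster share exons and their reads may be split. Of 17 fatty acid oxidation and ketogenesis genes 10 were lower and none higher. Acaa1b, a peroxisomal thiolase, was even at 0.846, 0.701 and 0.843 against 87.5 and 46.0 CPM (log2 fold change -6.38 ± 0.76, adjusted p = 0.0121). Acadvl and Hadha encode enzymes of mitochondrial oxidation. Acadvl measured 75.3, 61.8 and 86.3 against 694 and 460.1 CPM (log2 fold change -2.96 ± 0.63, adjusted p = 0.0287). Hadha measured 121, 181 and 73.0 against 821 and 691 CPM (log2 fold change -2.60 ± 0.69, adjusted p = 0.047). Without Foxl1 positive replicate 1 there were 4 detoxification and 2 oxidation calls, and without replicate 2 there were 15 and 4. Acadvl and Hadha did not pass without Foxl1 positive replicate 1 (adjusted p = 0.0645 and 0.101) or without replicate 2 (adjusted p = 0.0639 and 0.0641).

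Pan-epithelial genes were lower in 6 of 16 tested members and higher in none. Cldn7, a tight junction protein, measured 21.2, 46.4 and 15.7 against 1865 and 1137 CPM (log2 fold change -5.76 ± 0.90, adjusted p = 0.0163). Lgals4, a galectin of enterocytes, measured 388, 373 and 40.3 against 7102 and 5241 CPM (log2 fold change -4.53 ± 1.23, adjusted p = 0.049). Krt8, a keratin of simple epithelia, measured 177, 238 and 22.6 against 3798 and 2306 CPM (log2 fold change -4.39 ± 1.17, adjusted p = 0.047). Epcam and Cdh1 encode adhesion proteins that define epithelial cells, and neither passed (adjusted p = 0.138 and 0.312). Epcam measured 592, 552 and 32.4 against 2903 and 2579 CPM. Cdh1 measured 549, 426 and 16.3 against 1117 and 1224 CPM. The list had 3 calls without replicate 1 and 2 without replicate 2. Its median level in replicate 3 was 1.01% of the epithelial mean, against 8.73% and 8.72% in replicates 1 and 2. Lgals4 and Krt8 did not pass without Foxl1 positive replicate 1 (adjusted p = 0.101 and 0.105) or without replicate 2 (adjusted p = 0.0851 and 0.0747).

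Secretory lineage genes were at unequal levels between the sorted libraries. No goblet cell gene of 9 and no Paneth cell gene of 8 was called by edgeR, where 1 and 3 had an unadjusted p under 0.05. DESeq2 called 1 goblet gene in each direction and 5 Paneth genes higher, and limma-voom 2 goblet genes lower and no Paneth gene. Tuft cell genes (6 tested) and erythroid genes (5 tested) had no edgeR call either, with 3 and 1 at an unadjusted p under 0.05. There DESeq2 called 4 tuft genes lower and 3 erythroid genes higher, and limma-voom 4 lower and 1 higher. Lyz1, lysozyme of Paneth cells, measured 2847, 298 and 11.6 against 17.9 and 58.6 CPM. Replicate 1 was highest, and replicate 3 was below both epithelial libraries. Of 12 enteroendocrine genes 2 were lower (16.7%, beside 7.19% of all genes tested), and 4 without Foxl1 positive replicate 1. Gip, an incretin hormone, measured 263 and 149.5 CPM in the epithelium with no count in any Foxl1 positive library (at least 2071-fold lower, adjusted p = 0.0133). Nts, neurotensin, had a single count in the sorted libraries against 43.2 and 39.7 CPM (adjusted p = 0.0151). Chgb measured 484, 16.8 and 0.169 against 346 and 172 CPM. Of 11 crypt base stem cell genes 1 was higher (9.09%, beside 10.6% of all genes tested). This was Smoc2, a matrix protein that fibroblasts also make, at 40.4, 67.3 and 312 against 2.77 and 3.9 CPM (log2 fold change 5.39 ± 1.23, adjusted p = 0.0346). Lgr5 measured 75.7, 8.22 and 2.19 against 0.336 and 0.383 CPM and did not pass (adjusted p = 0.0599). Smoc2 did not pass without Foxl1 positive replicate 2 (adjusted p = 0.0555).

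Of 12 T cell genes 1 was higher (8.33%, beside 10.6% of all genes tested) and 3 were lower (25%, beside 7.19%). Cd4, of helper T cells, measured 173, 299.8 and 4.38 against 0.42 and 0.893 CPM (log2 fold change 7.91 ± 1.98, adjusted p = 0.0418). Cd8a and Itgae mark intraepithelial lymphocytes. Cd8a measured 0.564, 0.301 and 3.2 against 52.3 and 64.0 CPM (log2 fold change -5.48 ± 1.16, adjusted p = 0.0291). Itgae measured 1.69, 2.91 and 2.87 against 33.8 and 44.1 CPM (log2 fold change -3.97 ± 0.76, adjusted p = 0.0234). Cd3e, a subunit of the T cell receptor complex, measured 285, 293 and 3.2 against 27.1 and 23.0 CPM. Igj, the joining chain of secreted antibodies and a plasma cell gene, was higher at 577, 157 and 339.9 against 0.923 and 5.12 CPM (log2 fold change 6.89 ± 1.30, adjusted p = 0.0236). None of 11 macrophage and dendritic cell genes was called by edgeR, though 7 had an unadjusted p under 0.05, while DESeq2 called 7 higher and 2 lower and limma-voom 1 and 2. Cd4 and Cd8a did not pass without Foxl1 positive replicate 1 (adjusted p = 0.0744 and 0.061) or without replicate 2 (adjusted p = 0.0761 and 0.0554).

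Endothelial genes were higher in 5 of 11 tested members and lower in none. Pecam1 and Cdh5 encode adhesion proteins of endothelial junctions. Pecam1 measured 82.4, 71.9 and 190.1 against 1.09 and 1.6 CPM (log2 fold change 6.41 ± 0.92, adjusted p = 0.0151). Cdh5 measured 11.1, 31.3 and 28.3 against 0.021 and 0.0911 CPM (log2 fold change 8.58 ± 1.37, adjusted p = 0.0173). The summed level of the list was 1780%, 1910% and 12600% of the epithelial mean in Foxl1 positive replicates 1, 2 and 3, so that replicate 3, lowest in epithelial genes, was highest here. Interstitial cells of Cajal are the pacemakers of gut muscle, and 2 of 4 genes listed for them were higher. Etv1, a transcription factor, measured 85.3, 61.3 and 35.6 against 0.126 and 0.128 CPM (log2 fold change 8.85 ± 0.99, adjusted p = 0.0121). Gja1, a gap junction protein that other stromal cells also make, measured 36.2, 47.5 and 477 CPM with no count in either epithelial library (at least 6389-fold higher, adjusted p = 0.0232). Kit, the receptor that defines these cells, measured 141, 72.0 and 2.02 against 8.9 and 7.58 CPM and did not pass. The part of endothelial or pacemaker cells in the results was not tested.

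Of 16 proliferation genes 3 were higher (18.8%, beside 10.6% of all genes tested). Of 18 genes known to respond to tissue dissociation 4 were higher (22.2%). None was lower in either list. Top2a, the topoisomerase of dividing cells, measured 281, 140.5 and 73.0 against 4.43 and 10.8 CPM (log2 fold change 4.44 ± 0.97, adjusted p = 0.0313), highest in replicate 1. Mcm3, of the DNA replication helicase, measured 21.3, 39.1 and 21.1 against 2.27 and 3.04 CPM (log2 fold change 3.35 ± 0.85, adjusted p = 0.0418). Tyms, thymidylate synthase, measured 34.3, 16.8 and 23.1 against 2.29 and 2.68 CPM (log2 fold change 3.31 ± 0.86, adjusted p = 0.0439). Egr1 and Dusp1 are immediate early genes. Egr1 measured 523, 224 and 287 against 12.4 and 23.2 CPM (log2 fold change 4.28 ± 0.85, adjusted p = 0.0255). Dusp1 measured 278, 254 and 598 against 9.17 and 16.1 CPM (log2 fold change 4.90 ± 0.89, adjusted p = 0.0218). The median log2 fold change of the dissociation list was 0.33, close to the 0.32 of all genes. Of its 18 members 12 overlapped between groups, beside 5558 of all 13876 genes tested. Top2a, Mcm3 and Tyms did not pass without Foxl1 positive replicate 1 (adjusted p = 0.0529, 0.0524 and 0.0623) or without replicate 2 (adjusted p = 0.0599, 0.0692 and 0.0544). DESeq2 called 13 proliferation genes higher and limma-voom 9.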

How the data were processed

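RNA from 10 libraries of mouse intestinal cells was sequenced, of which 3 Foxl1 positive and 2 differentiated epithelium libraries enter here, grouped by their titles. The deposited tables hold raw counts per transcript and FPKM (fragments scaled to transcript length and library depth), both made by the authors. The submitters' processing notes name CASAVA 1.8.2, edgeR and the build mm9. The aligner, counting tool, annotation and strand setting were not given in the sources used here. Reads of a gene and an antisense partner, or of near-identical copies such as haemoglobin, ribosomal protein, defensin and Ugt1a genes, may therefore be mixed or split. The deposited table marks 1 transcript for each of 18594 genes among 24082 transcripts, and its counts were used as deposited.

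The 5 libraries were fitted alone in edgeR 4.0.16 (R 4.3.3) with filterByExpr, TMM scaling and the robust quasi-likelihood test, and p-values were adjusted by Benjamini-Hochberg over 13876 genes, with 0.05 as the threshold. FPKM were used for levels between genes and in limma 3.58.1 on log2(FPKM + 1), where fold changes of low genes are understated. DESeq2 1.42.0, limma-voom, other scalings and filters, and leaving out each library were alternatives. Scaling by library totals and leaving out Foxl1 positive replicates 1 and 2 together were added after seeing the data. The procedure was tested on simulated data with the same spread for all genes and no change in most of them. These libraries are less even, so that test does not show how many calls here are right. Counts differed between replicates of a group far beyond sampling noise (chi-square per degree of freedom 153 to 380), so none duplicates another. Library totals of 4368332 to 80910717 counts set the precision, and intervals, which are 95% Poisson limits of the small group's sum, and floors cover counting error only.

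Named genes were 12 at each end of the fold changes of called, non-overlapping genes (predicted genes and antigen receptor segments left out) with at least 50 CPM over both groups, and up to 4 per list with the smallest p, besides the marker genes. Others, such as uncalled members and Malat1, were chosen after their values were seen. The 41 lists and the genes to describe were chosen with earlier results of these data known. A list is described by its counts and its median beside all genes tested.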

Additional observations from a re-analysis of the deposited data

How the results depend on the processing

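Beside 1467 higher and 998 lower genes, 126 higher members of the signal, matrix and mesenchymal lists, 64 lower members of the absorptive and epithelial lists and 123 called named genes, median-of-ratios scaling, no filter, a filter of 1 CPM and the transcript with the highest mean count kept all these counts within 1.5 times. DESeq2 called 3470 higher and 2177 lower genes and 113 absorptive members, and limma-voom 2333 lower genes and 120 absorptive members. On log2(FPKM + 1) limma called 562 higher and 2426 lower genes, 77 mesenchymal and 122 absorptive members, with a pseudocount of 0.1 905, 1995 and 111 absorptive, and without a filter 293 and 1876, with 38 mesenchymal and 98 absorptive members and 78 named genes. One edgeR fit of all 10 libraries called 0 genes in any of these counts, at a lowest adjusted p of 0.122 with 2870 genes at an unadjusted p under 0.05. Libraries thinned to the smallest total gave 587 higher and 309 lower genes and 29 absorptive members, so depth limits the counts. Library totals without TMM gave 2488, 398 and 32, and Foxl1 positive replicate 3 alone 4466, 4562 and 149, with that lone library assumed to vary like the epithelium. Leaving out 1 library at a time gave 0 to 3155 higher and 0 to 3087 lower genes, 0 to 136 mesenchymal and 0 to 121 absorptive members and 0 to 123 named genes, where the 0 comes from fits with 1 epithelial library, whose spread comes from the Foxl1 positive libraries alone. The replicate numbers were not taken to pair the samples, since only 2 are shared. Deviations of the same-numbered libraries correlated at -0.16 and 0.135. The deviations of the 2 epithelial libraries mirror each other by construction, so these values cannot decide whether samples were paired. A replicate block, in which Foxl1 positive replicate 3 has no partner and adds nothing to the contrast, gave 2478 higher and 2285 lower genes and 121 absorptive members. No called gene named here reversed. Among uncalled genes the log2 fold change reversed in these cases: Bmp2 -0.21, Klf5 -1.10, Porcn -0.09 and Tpm1 -0.35 under log2(FPKM + 1). Bmp2 -0.26, Klf5 -1.27, Porcn -1.16 and Tpm1 -0.35 under log2(FPKM + 0.1). Bmp2 -0.21, Klf5 -1.10, Porcn -0.09 and Tpm1 -0.35 under log2(FPKM + 1) without a filter. Cd3e -2.97, Kit -2.03, Klf5 -4.35, Lyz1 -1.74, Sox6 -0.22, Wnt3 -7.27 and Wnt4 -0.44 under replicate 3 alone. Chgb 0.40 and Fzd5 0.77 under library totals. Fzd5 0.25, Porcn -8.52 and Tpm1 -0.16 under the replicate block. Klf5 -0.52 and Porcn -3.22 under limma-voom. Leaving out 1 library ranged Bmp2 from -0.06 to 0.57, Fzd5 from -0.96 to 0.12, Klf5 from -0.06 to 0.86, Porcn from -8.83 to 0.85 and Tpm1 from -0.30 to 0.47. The causes were not tested.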

Other observations

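Values of 5 gene families, picked by symbol after their values were seen, stand beside 10.6% higher and 7.19% lower calls over all genes tested. Some members, such as Ugt1a1, are also in the lists above. Of 87 tested nuclear genes of the respiratory chain and ATP synthase 45 were lower in Foxl1 positive cells and none higher, with a median log2 fold change of -2.62. Of 9 MHC class II and H2-DM genes, which present peptides to helper T cells, 5 were lower and none higher, with a median of -4.33. Of 14 UDP-glucuronosyltransferase genes, which conjugate bile pigments and drugs, 10 were lower and none higher, though their reads may be split between copies. Hox genes, which set position along the gut, were higher in 7 of 18 tested members and lower in none, with a median of 7.08 (6.62 with genes without an epithelial count at their bound). Cytosolic ribosomal protein genes, 73 tested, had 2 lower and no higher calls, a share of lower calls under that of all genes, and a median of 0.61 beside 0.32 over all genes.

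Vim, the intermediate filament protein of mesenchymal cells, measured 265, 205 and 460.5 against 6.38 and 4.61 CPM (log2 fold change 5.82 ± 0.87, adjusted p = 0.0155). Meg3, an imprinted non-coding RNA, measured 10.9, 4.91 and 26.5 against 0 and 0.0364 CPM (723-fold higher, 200.1 to 5968 by counting, adjusted p = 0.0271). Rbp2, the retinol carrier of enterocytes, measured 11.1, 166 and 3.2 against 13084 and 7507 CPM (log2 fold change -7.42 ± 1.98, adjusted p = 0.0477). Ccl25, the chemokine that draws lymphocytes to the small intestine, measured 21.0, 135 and 3.37 against 1076 and 939 CPM (log2 fold change -4.24 ± 1.42, adjusted p = 0.0788). Gapdh, a glycolytic enzyme that every cell uses and that has many near-identical pseudogene copies, measured only 0.352, 3.31 and 0.674 against 9.72 and 5.47 CPM. Its level here is therefore uncertain. Rbp2 did not pass without Foxl1 positive replicate 1 (adjusted p = 0.108).

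Genes called higher spanned more genome than genes called lower. The median distance from start to end in mm9 was 43.9 kb for the higher, 13.9 kb for the lower and 20.6 kb for the uncalled genes. Among the 3469 genes with the shortest span 6.34% were higher and 9.8% lower, and among the 3469 with the longest 19.3% and 3.55%. This was seen in the data first and is given as a description, and its cause was not tested.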
